A study of Mus musculus with 18 samples.

Results

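Khdc3, Ooep, Tle6, Nlrp5 and Padi6, which encode proteins of the oocyte, and Crxos, a homeobox gene, were followed in mouse pluripotent cells that were held either by signaling inhibitors or by continuous expression of reprogramming factors. The 6 genes were found by their gene names among 55469 genes. Khdc3 and Crxos had been selected on their decrease in OSKM cells in these same libraries, so their differences between media are given as a description and were not tested. The other 4 genes were chosen by their known place beside Khdc3, with earlier results of these data known. The libraries were made from 9 conditions with 2 libraries each. Embryonic stem cells (ESCs) of the Tet-On-OSKM/Oct4-GFP line, whose strain crosses (C57BL/6 x 129S4/SvJae)F1 with (CBA/CaJ X C57BL/6J)F2, were either kept in 2iL, which is N2B27 with the MEK inhibitor PD0325901, the GSK3 inhibitor CHIR99021 and LIF (2iL-ESCs), or moved to N2B27 with doxycycline (DOX), which switches on a transgene carrying Oct4, Sox2, Klf4 and c-Myc, together OSKM (OSKM-ESCs). Both were collected at days 18, 25 and 38, with 2 cultures each. Induced pluripotent stem cells (iPSCs) of strain (C57BL/6 x 129S4/SvJae)F1 were made from mouse embryonic fibroblasts (MEFs) in N2B27 with DOX (OSKM-iPSCs, clone 1 at passage 7 and clone 3 at passage 6) or in 2iL with DOX (2iL-iPSCs, clone 3 at passage 2 and clone 6 at passage 3), and 2 MEF libraries of the same strain were sequenced.

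All ESCs carried the DOX-inducible OSKM transgene, the 2iL-ESCs included, as 1 line with GFP under the Oct4 distal promoter. They grew on MEF feeder cells. By the methods of the study, the MEFs that were reprogrammed came from Tet-On-OSKM mice and were seeded onto feeder cells. Both iPSC groups therefore carried the transgene as well. The labels of the 2iL-iPSCs list DOX in N2B27 for daily culture, whereas by the methods of the study DOX was removed once clones were picked, so the clones are named here by their titles. Passage number cannot be told apart from medium in the iPSCs, nor strain from cell type between ESCs and iPSCs. No batch is given, and whether same-day cultures were separate from the start is not stated, so the p-values measure the spread between these libraries. The 12 pluripotency markers summed to an FPKM (fragments scaled by transcript length and by mapped reads) of 647 to 2008 in the 16 pluripotent libraries and of 21.2 to 23.8 in MEFs. Pou5f1 (Oct4), at 437 to 843 in the pluripotent libraries, and Sox2 are among them and are also encoded by the transgene. In OSKM cells the sum therefore cannot tell transgene from endogenous RNA. The 12 fibroblast markers summed to 1793 and 1556 in MEFs, 20.8 to 38.8 in OSKM-ESCs, 4.29 to 6.80 in 2iL-ESCs, 4.44 in OSKM-iPSC clone 3, 3.58 and 2.00 in 2iL-iPSCs and 101.3 in OSKM-iPSC clone 1, which stood apart.

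As background, the subcortical maternal complex assembles beneath the plasma membrane of the growing oocyte and is inherited by the early embryo, which needs it to pass its first cleavages. NLRP5 (MATER) is its large NLR-type scaffold, OOEP (FLOPED) and KHDC3 (FILIA) are small KH-domain proteins, TLE6 is a divergent member of the Groucho family of corepressors, and PADI6 is an oocyte member of the peptidylarginine deiminases that is needed for the same cytoplasmic structures. KHDC3 is also known from mouse ESCs, where it acts in the DNA damage response. Crxos lies head to head with Crx, a homeobox gene of photoreceptors, and is known from the early embryo and from ESCs rather than from this complex.

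By the GRCm38 coordinates of the files, Khdc3 (ENSMUSG00000092622) lies on chromosome 9 from 73101836 to 73104438 on the plus strand and Ooep (ENSMUSG00000032346) on the same chromosome from 78376109 to 78378725 on the minus strand, 5271670 bases away. Tle6 (ENSMUSG00000034758) occupies chromosome 10 from 81590904 to 81601073 on the minus strand. Nlrp5 (ENSMUSG00000015721) lies on chromosome 7 from 23385889 to 23441922 and Crxos (ENSMUSG00000074365) from 15882617 to 15904020, both on the plus strand. Padi6 (ENSMUSG00000040935) lies on chromosome 4 from 140727355 to 140742643 on the minus strand. The genes of the complex are thus spread over 4 chromosomes, and no 2 of the 6 are neighbors.

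Promoter windows of RefSeq (GRCm38.p6, 250 bases before to 50 after an annotated start) were available for all 6 genes, 10 windows in total. The 4 windows below, 1 for each gene that exceeded an FPKM of 1, show the letters around 1 annotated start of each. These genes were lower in OSKM cells, and the capitals mark CpG dinucleotides. Tle6 and Crxos have further annotated starts whose windows are not shown. The Crxos window shown lies inside the gene model, downstream of the start of the gene at 15882617.
Khdc3 (chr9:73102148-73102447, plus strand): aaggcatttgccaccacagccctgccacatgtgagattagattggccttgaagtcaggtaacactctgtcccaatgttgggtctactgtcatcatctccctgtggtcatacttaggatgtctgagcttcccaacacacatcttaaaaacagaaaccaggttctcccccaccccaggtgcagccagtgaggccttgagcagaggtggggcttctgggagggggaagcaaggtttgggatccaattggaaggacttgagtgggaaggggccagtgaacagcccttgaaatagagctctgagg
Ooep (chr9:78378539-78378838, minus strand): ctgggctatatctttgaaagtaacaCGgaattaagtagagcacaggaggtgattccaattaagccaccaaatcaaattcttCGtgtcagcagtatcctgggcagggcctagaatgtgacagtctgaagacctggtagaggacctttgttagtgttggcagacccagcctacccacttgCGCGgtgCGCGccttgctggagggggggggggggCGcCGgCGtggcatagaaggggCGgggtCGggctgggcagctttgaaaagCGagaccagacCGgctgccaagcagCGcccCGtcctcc
Tle6 (chr10:81600851-81601150, minus strand): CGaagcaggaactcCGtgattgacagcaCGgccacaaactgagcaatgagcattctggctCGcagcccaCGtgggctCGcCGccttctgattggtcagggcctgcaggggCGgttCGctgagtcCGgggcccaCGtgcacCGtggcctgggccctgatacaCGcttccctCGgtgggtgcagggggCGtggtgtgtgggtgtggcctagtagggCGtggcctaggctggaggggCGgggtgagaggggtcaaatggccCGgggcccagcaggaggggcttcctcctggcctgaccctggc
Crxos (chr7:15901396-15901695, plus strand): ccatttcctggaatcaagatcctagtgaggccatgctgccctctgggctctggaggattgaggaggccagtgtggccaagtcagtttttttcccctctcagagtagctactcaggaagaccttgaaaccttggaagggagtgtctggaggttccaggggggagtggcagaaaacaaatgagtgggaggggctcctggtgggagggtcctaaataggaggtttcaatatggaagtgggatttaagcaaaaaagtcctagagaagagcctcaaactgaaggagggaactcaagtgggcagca

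The Khdc3 window held 0 CpG and the Ooep window 15. For Tle6 the window shown held 18 and the other 3, and for Crxos the window shown held 0 and the others 2 and 4, so the count depended on the start taken. The median over 32851 promoter windows was 7 with quartiles of 3 and 20. Exact matches to 6 short motifs were searched on both strands. AAGGTCA (Esrrb, in 4.72% of all windows), TTTGCAT (octamer, 4.63%) and CTTTGAT (Tcf/Lef, 3.73%) had no match in the 4 windows shown. CACGTG (E-box, 7.15%) was found in the Tle6 window 183 and 119 bases before the start, and GGGTGTG (Klf, 7.95%) 54 bases before it. TTCCNGGAA (STAT, 1.15%) had a match in the Crxos window shown, TTCCTGGAA, 246 bases before the start of that window. The other Crxos windows, including the one at the start of the gene, had no match to any motif. In the 6 windows not shown, the 1 match was CTTTGAT in the Padi6 window, 154 bases before the start. The motifs do not overlap each other in these windows, and a match describes letters only.

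Khdc3 was close to absent from OSKM-ESCs and readily measured in 2iL-ESCs. Its FPKM in OSKM-ESCs was 0 and 0 at day 18, 0.454 and 0.156 at day 25, and 0 and 0.0342 at day 38. In 2iL-ESCs it was 14.4 and 13.1 at day 18, 19.1 and 19.1 at day 25, and 14.7 and 13.9 at day 38. The lowest 2iL-ESC culture thus lay above every OSKM-ESC culture, as for 12% of all genes. The deposited mean coverage times the exonic length of 2050 bases gives whole numbers of aligned bases, and these show how little the low values rest on. In the 3 OSKM-ESC cultures listed above 0, Khdc3 had 3935, 1478 and 300 aligned bases, against 111299 to 161426 in 2iL-ESCs. No fold change is given over all days, because 3 of 6 OSKM-ESC cultures are listed at 0. At day 25, where both cultures had reads, the mean of 2iL-ESCs was 62.7 times that of OSKM-ESCs. On the log2(FPKM + 1) scale the difference of OSKM-ESCs from 2iL-ESCs was -3.92 ± 0.082 (SE, n = 6 and 6), the 6th lowest of 14016 genes.

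Crxos showed the same contrast, with a low but present level in every OSKM-ESC culture. Its FPKM in OSKM-ESCs was 0.896 and 0.338 at day 18, 0.441 and 0.101 at day 25, and 0.741 and 0.465 at day 38. In 2iL-ESCs it was 21.6 and 22.0, 26.3 and 26.6, and 24.4 and 20.1 on the same days, and the groups did not overlap, as for 12% of all genes in this direction. The mean of 2iL-ESCs, 23.5 ± 2.66 (SD, n = 6), was 47.3 times that of OSKM-ESCs, 0.497 ± 0.285 (SD, n = 6), and the difference was -4.05 ± 0.136 (SE) on the log2(FPKM + 1) scale, the 4th lowest. Tbx3 (-3.96) stood between the 2 genes, with Aqp3 (-4.07) just before and Gm32885 (-3.90) just after them. Both genes had been selected as large shared decreases, and the ranks restate that choice.

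**Figure D1:**
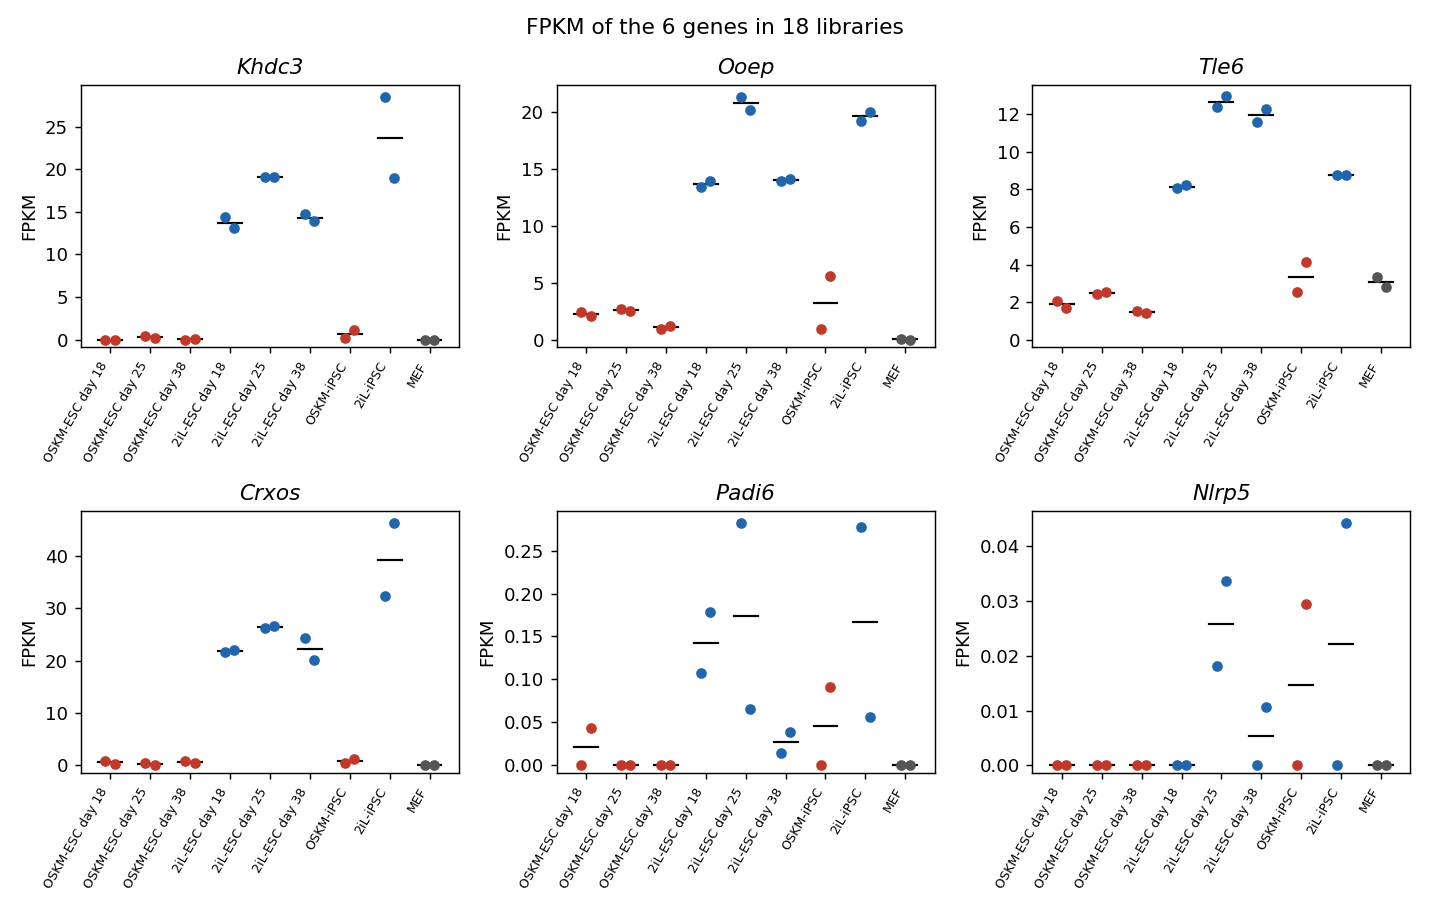
FPKM of the 6 genes in each of the 18 libraries (points; red OSKM, blue 2iL, grey MEF) with the mean of each condition (line), on a separate vertical axis for each gene. Khdc3, Ooep, Tle6 and Crxos lay lower in every OSKM library than in any 2iL library. Of all genes tested, 12% separated in this direction in ESCs and 25.4% in iPSCs. The axes of Padi6 and Nlrp5 end below an FPKM of 0.3 and 0.05.

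Ooep, the KH-domain partner of Khdc3 in the complex, was lower in OSKM-ESCs but remained measurable. Its FPKM was 2.42 and 2.08 at day 18, 2.703 and 2.48 at day 25, and 0.941 and 1.23 at day 38 in OSKM-ESCs. In 2iL-ESCs it was 13.4 and 13.9, 21.3 and 20.2, and 13.9 and 14.1. The groups did not overlap, as for 12% of all genes in this direction. The mean of 2iL-ESCs, 16.1 ± 3.60 (SD, n = 6), was 8.17 times that of OSKM-ESCs, 1.98 ± 0.724 (SD, n = 6). The log2(FPKM + 1) difference was -2.54 ± 0.108 (SE, 95% interval -2.78 to -2.31), with an adjusted p of 5.8e-09 (limma, Benjamini-Hochberg over all genes). An exact 2-sided permutation test that moved the 6 and 6 cultures freely across days gave p = 0.0022, the smallest it can give. It ignored day and treated all cultures as exchangeable, which the repeated sampling of 1 line does not ensure.

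Tle6 was lower in OSKM-ESCs as well, by less. Its FPKM was 2.08 and 1.70 at day 18, 2.44 and 2.55 at day 25, and 1.51 and 1.40 at day 38 in OSKM-ESCs, against 8.08 and 8.22, 12.4 and 12.99, and 11.6 and 12.3 in 2iL-ESCs. Again the lowest 2iL-ESC culture lay above the highest OSKM-ESC culture, as for 12% of all genes. The means were 1.95 ± 0.485 and 10.9 ± 2.198 (SD, n = 6 each), a ratio of 5.61, and the log2(FPKM + 1) difference was -2.01 ± 0.112 (SE, 95% interval -2.26 to -1.77, adjusted p = 5.1e-08, limma). The same permutation test, which ignored day, gave p = 0.0022. Among all 14016 genes tested, 24.4% were lower and 29.5% higher in OSKM-ESCs with an adjusted p under 0.05, so a decrease that passes the test was common. The sizes were less so, since Ooep ranked 80 and Tle6 188 from the lowest difference.

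Padi6 and Nlrp5 never reached an FPKM of 1 in any library, so the filter kept them out of the fit across genes. Padi6 was listed at 0 in 5 of 6 OSKM-ESC cultures and at 0.0430 in the other, from 600 aligned bases. In 2iL-ESCs it was 0.107 and 0.178 at day 18, 0.282 and 0.0658 at day 25, and 0.0148 and 0.0389 at day 38, from 195 to 3624 bases. The 2 groups overlapped, with a log2(FPKM + 1) difference of -0.14 (exact 2-sided permutation test ignoring day, p = 0.0065, 1 of 4 such tests, unadjusted). With no filter on low values, Padi6 had an adjusted p of 0.044 (limma). Nlrp5, the scaffold of the complex in oocytes, was listed at 0 in all 6 OSKM-ESC cultures and in 3 of 6 2iL-ESC cultures. Its highest values were 0.0336 in a day 25 culture of 2iL-ESCs, from 590 aligned bases, and 0.0443 in a 2iL-iPSC clone, from 900 bases. A difference between the media was not detectable for Nlrp5 (exact 2-sided permutation test ignoring day, p = 0.18). Thus 4 of the 6 genes exceeded an FPKM of 1 in 2iL cells, and the scaffold transcript was at the limit of detection. In bulk RNA, fewer expressing cells and less RNA per cell cannot be told apart.

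Levels of different genes depended on the scale. By FPKM, Crxos had the highest mean in 2iL-ESCs, followed by Ooep, Khdc3 (15.7 ± 2.69, SD, n = 6) and Tle6. By mean coverage over the whole gene model, divided by the coverage per FPKM of single-transcript genes in the library, the means were 16.1 for Ooep, 11.7 for Khdc3, 6.09 for Tle6 and 4.37 for Crxos. Coverage per unit of FPKM was 5.01 to 6.07 for Ooep, which has 1 annotated transcript, and 0.913 to 1.16 for Crxos in 2iL-ESCs. For Crxos the aligned bases came out whole with a model length of 5214 bases and not with the 2956 exonic bases of GENCODE M21, so the authors' annotation of this gene was a longer one. Crxos was therefore the highest of the 4 by FPKM and the lowest by coverage. The ratio of 2iL-ESC to OSKM-ESC means by coverage was 58.0 for Crxos and 5.61 for Tle6. For Ooep, itself a single-transcript gene, the scaled coverage equals the FPKM by construction. Its ratio of 8.17 by coverage therefore restates the FPKM ratio.

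**Figure D2:**
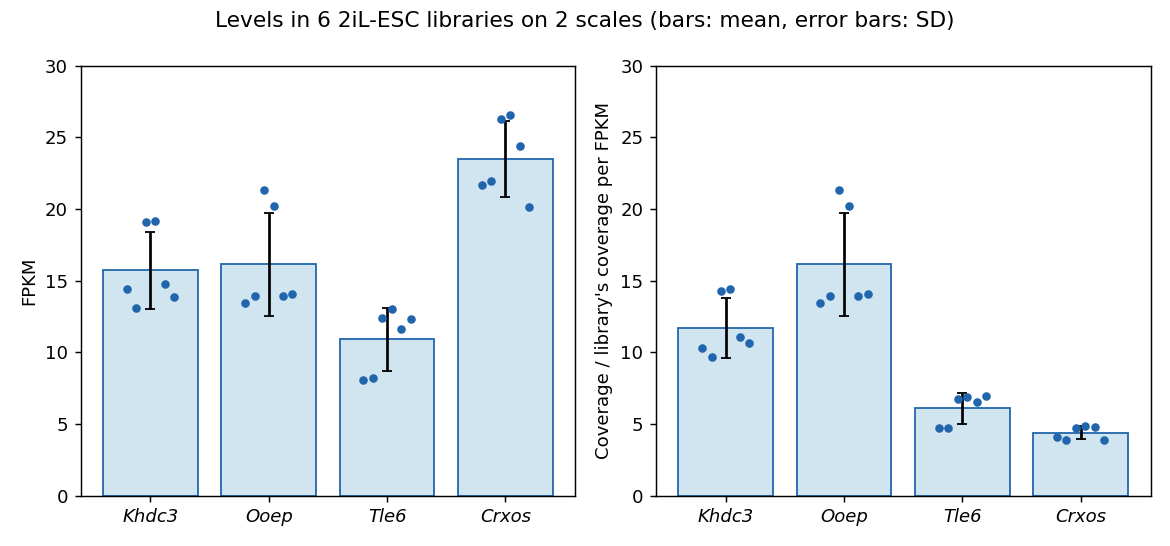
Mean (bar), SD (error bar) and single values (points) of 4 genes in the 6 2iL-ESC libraries, as FPKM (left) and as mean coverage divided by the coverage per FPKM of the library (right). Crxos moves from the highest bar, 23.5, to the lowest, 4.37. Ooep stays at 16.1 by construction, because it is a single-transcript gene.

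The next question was whether the difference between media changed from day to day. For Ooep the difference of OSKM-ESCs from 2iL-ESCs on the log2(FPKM + 1) scale was -2.17 at day 18, -2.60 at day 25 and -2.85 at day 38, and the change between days passed the interaction test (limma, adjusted p = 0.011). For Tle6 it was -1.67, -1.97 and -2.40 (adjusted p = 0.0057). Both differences were largest at day 38. Of all genes, 37.9% passed this test, so changing between days was a common behavior. With all 18 libraries in 1 fit neither passed (adjusted p = 0.63 for Ooep and 0.071 for Tle6). Khdc3 differed by -3.88, -3.96 and -3.91 on the 3 days, near the limit that values close to 0 set on this scale, and Crxos by -3.84, -4.45 and -3.86.

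Within OSKM-ESCs, Ooep varied between days (limma F test, adjusted p = 0.012, 38.6% of all genes called), with its lowest pair of values at day 38. Its adjusted p was 0.092 without replicate 1 of day 38, 0.051 with no filter on low values and 0.22 with all 18 libraries in 1 fit. For Tle6 the adjusted p was 0.052. Tle6 passed under 5 other settings, with adjusted p-values between 0.027 and 0.046. Khdc3, Crxos, Padi6 and Nlrp5 were under the filter there. Within 2iL-ESCs, Khdc3 (adjusted p = 0.0065), Ooep (0.0016) and Tle6 (0.0024) varied between days, where 50.8% of all genes did, and Crxos had an adjusted p of 0.086 (limma F test). All 4 genes had their highest mean at day 25. For Khdc3, Ooep and Crxos day 38 returned close to day 18, while Tle6 was 11.95 ± 0.501 at day 38 and 8.15 ± 0.0978 at day 18 (SD, n = 2 each). The call for Khdc3 was lost without replicate 2 of day 25 (adjusted p = 0.051), and with all 18 libraries in 1 fit those for Khdc3 (0.30) and Ooep (0.45) were lost. Crxos passed with TPM (adjusted p = 0.027) or without replicate 1 of day 38 (0.027).

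**Figure D3:**
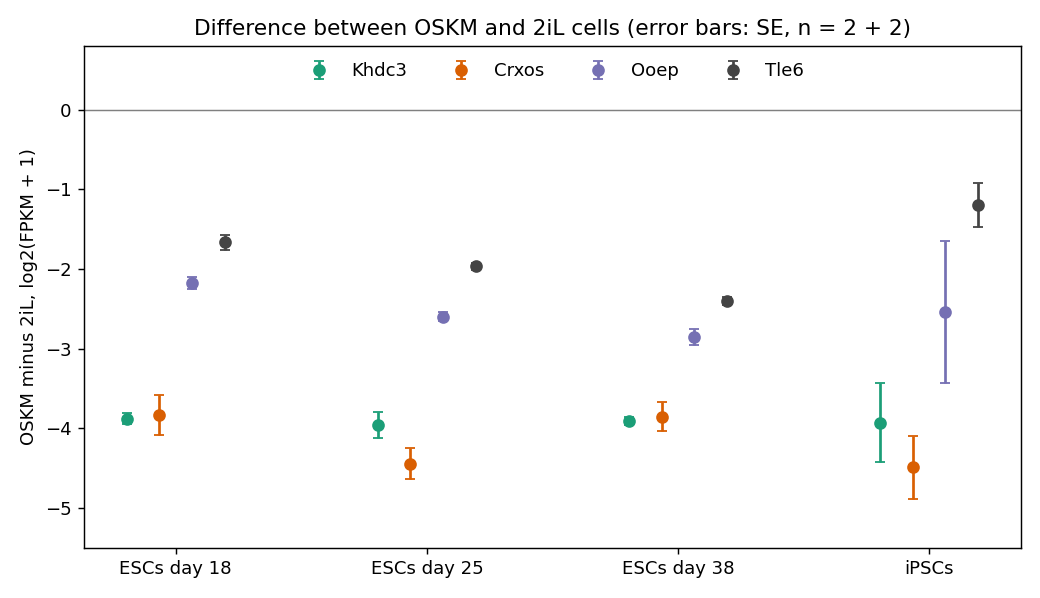
Difference of OSKM from 2iL cells on the log2(FPKM + 1) scale (points) with its SE from 2 and 2 libraries (error bars), for ESCs of 3 days and for iPSCs. Ooep and Tle6 move further below 0 from day 18 to day 38, and all 4 genes lie below 0 in iPSCs.

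The iPSCs gave the same direction with a wider spread. Khdc3 had an FPKM of 0.204 and 1.11 in OSKM-iPSC clones 1 and 3 and of 28.5 and 19.0 in 2iL-iPSC clones 3 and 6, a ratio of means of 36.1. Crxos had 0.430 and 1.18 against 32.2 and 46.3, a ratio of 48.9. Ooep had 0.904 and 5.56 against 19.2 and 20.0, and Tle6 had 2.53 and 4.15 against 8.79 and 8.78. For each of these 4 genes both OSKM-iPSC clones lay below both 2iL-iPSC clones, and clone 3 was the higher of the OSKM-iPSC clones. Of all genes tested, 25.4% separated in this way with 2 and 2 clones. Padi6 was 0.0917 or less in OSKM-iPSCs and 0.277 and 0.0564 in 2iL-iPSCs, and Nlrp5 reached 0.0294 and 0.0443. The differences on the log2(FPKM + 1) scale were -3.93 ± 0.357 for Khdc3 and -4.49 ± 0.301 for Crxos (SE, n = 2 and 2, description).

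Ooep differed by -2.54 ± 0.566 (SE, 95% interval -3.96 to -1.13, adjusted p = 0.055, limma) and Tle6 by -1.20 ± 0.256 (SE, 95% interval -1.84 to -0.56, adjusted p = 0.051). Neither passed the threshold, in a comparison where 2.96% of 13653 genes were lower and 5% higher; both had an unadjusted p under 0.05. Other settings moved both across the line. With all 18 libraries in 1 fit the adjusted p was 0.00022 for Ooep and 7.3e-05 for Tle6, and with a filter of FPKM over 1 in 2 libraries 0.049 and 0.046. Without OSKM-iPSC clone 1, whose fibroblast marker sum stood apart, the Ooep difference was -1.65 (adjusted p = 0.031) and that of Tle6 -0.93 (adjusted p = 0.074). Without clone 3 they were -3.44 (adjusted p = 0.025) and -1.47 (adjusted p = 0.036), where the lone clone is taken to vary as the others do.

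Reprogrammed cells were then compared with ESCs of the same medium. In OSKM cells, 0 of 4 genes tested differed between iPSCs and ESCs with an adjusted p under 0.05 (limma). Of the 4, 1, Tle6, had an unadjusted p under 0.05 (limma). Khdc3 (1.11) and Crxos (1.18) passed the filter through OSKM-iPSC clone 3 alone, so only Ooep and Tle6 were free in direction. Of all genes, 1.27% were higher in OSKM-iPSCs. The Tle6 difference was 0.55 (95% interval 0.034 to 1.06), and with all 18 libraries in 1 fit its adjusted p was 0.0084. The intervals were wide for Ooep, from -0.67 to 1.24, so that likeness was not shown. In 2iL cells Crxos was higher in iPSCs, at 39.3 ± 9.94 (SD, n = 2) against 23.5 ± 2.66 (SD, n = 6), a log2(FPKM + 1) difference of 0.70 ± 0.158 (SE, adjusted p = 0.045, limma), where 1.62% of genes were higher. This call was lost with any 1 of the 8 libraries left out (adjusted p = 0.052 to 0.32). Khdc3 (0.55, adjusted p = 0.16), Ooep (0.29, adjusted p = 0.44) and Tle6 (-0.26, adjusted p = 0.49) did not pass.

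MEFs, the cells of origin, set the somatic background. Khdc3, Crxos, Padi6 and Nlrp5 had no reads listed in either MEF library, and Ooep was at 0.0194 and 0. Tle6 was the exception, with 3.36 and 2.83 in MEFs, above every OSKM-ESC culture and between the 2 OSKM-iPSC clones. In 2iL-iPSCs, Ooep was higher than in MEFs by 4.35 ± 0.110 (SE, adjusted p = 1.5e-05, limma) and Tle6 by 1.26 ± 0.119 (SE, adjusted p = 0.00049), where 40.6% of genes were higher. In OSKM-iPSCs, neither passed, with 1.81 for Ooep (adjusted p = 0.069) and 0.06 for Tle6 (adjusted p = 0.84), where 34% of genes were higher. Ooep had an unadjusted p under 0.05 there (limma), and its difference was 2.699 without OSKM-iPSC clone 1. Because Ooep exceeded an FPKM of 1 in iPSCs only, the filter fixed its direction in both comparisons with MEFs. Its p-values there add no support for that direction. The part of feeder or fibroblast RNA in the Tle6 level of OSKM cells was not tested.

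By mean FPKM over the 9 conditions, Khdc3 was highest in 2iL-iPSCs, then in 2iL-ESCs of days 25, 38 and 18, OSKM-iPSCs and OSKM-ESCs of days 25 and 38. The first 2 of these, days 38 and 18 of 2iL-ESCs, and OSKM-iPSCs with OSKM-ESCs of day 25 overlapped as neighbors. For Crxos the order was the same down to OSKM-iPSCs, which overlapped with OSKM-ESCs of day 18, and these with day 38. For Ooep the order opened with 2iL-ESCs of day 25, 2iL-iPSCs and 2iL-ESCs of days 38 and 18. The only neighbors in the Ooep order that overlapped were OSKM-iPSCs and OSKM-ESCs of day 25. For Tle6 the 2iL-iPSCs stood between 2iL-ESCs of days 38 and 18, and OSKM-iPSCs overlapped with MEFs.

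Families and partners of the 6 genes, from lists chosen with earlier results known, did not move as a block. Of the other components assigned to the complex, Zbed3, a zinc-finger protein, was higher in OSKM-ESCs, at 18.6 to 27.3 against 6.62 to 9.98 in 2iL-ESCs (difference 1.46, adjusted p = 8.6e-08, limma), and in OSKM-iPSCs, at 17.5 and 22.2 against 5.43 and 5.55 (1.68, adjusted p = 0.017). Nlrp4f was lower in OSKM-ESCs, at 1.61 to 13.7 against 15.7 to 25.3 (-1.74, adjusted p = 4.2e-05), and did not pass in iPSCs (-1.49, adjusted p = 0.084). Nlrp2 was listed at 0 throughout. Of these 3 genes, 2 were tested, and their median difference was -0.14 in ESCs and 0.09 in iPSCs, against 0.03 and 0.09 over all genes. Members of the complex thus went in opposite directions between media.

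Dppa5a, a KH-domain relative that lies 7931 bases from Ooep on the same strand, had an FPKM of 133.1 to 299.0 in OSKM-ESCs and 922 to 1320 in 2iL-ESCs (difference -2.35, adjusted p = 2e-07, limma). In iPSCs its FPKM was 178 and 575 against 1083 and 1314 (-1.89, adjusted p = 0.085), and the difference was -1.05 without OSKM-iPSC clone 1. Khdc1c was at 0.711 to 1.41 in 2iL-ESCs and listed at 0 in all OSKM libraries and in both 2iL-iPSC clones, and Khdc1a and Khdc1b stayed under an FPKM of 1. Khdc1c passed the filter through 2iL-ESCs alone, so Dppa5a was the 1 KH-domain gene whose direction the filter left free. It had an unadjusted p under 0.05 in iPSCs. Khdc1 and Nlrp genes have close copies, and only uniquely mapped reads were kept, so their values are less certain.

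Genes that work with Khdc3 in the DNA damage response were lower in OSKM-ESCs by smaller amounts. Parp1, which senses DNA breaks, was 121.7 to 172.9 against 243.3 to 264.9 (difference -0.74, adjusted p = 1.4e-06, limma), and Trim25, a ubiquitin ligase, 8.19 to 10.2 against 21.8 to 38.8 (-1.61, adjusted p = 1.1e-07). The helicase Blm (-0.47) and the checkpoint kinase Chek2 (-0.53) also passed, so 4 of 4 were lower in ESCs, where 24.4% of all genes were, with a median of -0.63. In iPSCs 0 of 4 passed, with a median of -0.49 and adjusted p-values from 0.054 for Trim25 to 0.37 for Blm (limma), and 3 of 4 had an unadjusted p under 0.05, or 1 of 4 without OSKM-iPSC clone 1. All 4 had an FPKM of 7.06 or more in every OSKM library.

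Of 10 further oocyte Nlrp genes, Nlrp9b was lower in OSKM-ESCs, at 0.127 to 1.10 against 2.02 to 5.94 (difference -1.49, adjusted p = 5.3e-05, limma). Nlrp4c was at 0.81 or less against 0.724 to 1.51 and passed the filter through 2iL-ESCs alone, so its direction is given as values only. In iPSCs 0 of 2 passed and 0 of 2 had an unadjusted p under 0.05 (limma; 1 of 2 without OSKM-iPSC clone 1), with differences of -0.68 for Nlrp9b and -0.0011 for Nlrp4c. Nlrp9b passed the filter of the iPSC comparison through 2iL-iPSCs alone. Nlrp14 and Nlrp4a stayed under an FPKM of 1. Of the peptidylarginine deiminases, Padi4 was at 0.0725 to 0.354 in OSKM-ESCs and 0.749 to 2.13 in 2iL-ESCs, Padi3 at 0.277 to 0.649 and 0.214 to 1.84, and Padi2 at 0.108 to 0.294 and 0.101 to 1.83. All 3 passed the filter through 2iL-ESCs alone, and Padi1 stayed near 0. In iPSCs 0 of 2 deiminases passed (limma). Padi4 passed the filter there through 2iL-iPSCs alone and Padi3 through OSKM-iPSCs alone. Padi3 was higher in OSKM-iPSCs by 0.74, with an unadjusted p under 0.05 (limma), in the direction that the filter fixed. None of the 4 exceeded an FPKM of 2.13 in a pluripotent library.

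Among the Groucho genes, Tle5, a short family member 24541 bases from Tle6, was lower in OSKM-ESCs, at 22.3 to 30.03 against 103.3 to 127.5 (difference -2.13, adjusted p = 2e-09, limma), and in OSKM-iPSCs (-2.02, adjusted p = 0.010). Tle4 was lower in OSKM-ESCs (-0.30, adjusted p = 0.040), with overlapping cultures, while Tle3 (-0.07, adjusted p = 0.69) and Tle1 (-0.15, adjusted p = 0.13) did not pass. Tle2, which ends 58 bases from Tle6 on the other strand and had 3.68 and 4.94 in MEFs, was at 0.24 to 0.467 in OSKM-ESCs and 0.517 to 1.31 in 2iL-ESCs (-0.57, adjusted p = 7.9e-04). Counting was not stated to use strand, so reads at the ends of Tle6 and Tle2 may be shared. Tle2 passed the filter through 2iL-ESCs alone. Of the other 4 Groucho genes, 2 were lower in ESCs, with a median of -0.23, and 1 in iPSCs, where 24.4% and 2.96% of all genes were.

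Crx itself was listed at 0 in every ESC library, in OSKM-iPSCs and in MEFs, and at 0.121 and 0.161 in 2iL-iPSCs. Its model ends 2648 bases from that of Crxos, so the 2 do not overlap in these coordinates. Obox6, an oocyte-type homeobox gene 42938 bases from Crxos, was at 0.0703 or less in OSKM-ESCs and at 7.87 to 23.1 in 2iL-ESCs (difference -3.68, adjusted p = 3.6e-08, limma). In iPSCs Obox6 was at 0.653 and 1.40 against 16.9 and 20.0 (-3.28, adjusted p = 0.0096). Otx2, a homeobox gene of the Crx family known from the post-implantation epiblast, went the other way, at 8.67 to 14.6 in OSKM-ESCs against 0.282 to 0.865 in 2iL-ESCs (3.10, adjusted p = 1.2e-09) and 2.27 higher in OSKM-iPSCs (adjusted p = 0.043). Otx1 stayed at 0.304 or less. In ESCs both genes exceeded an FPKM of 1 in 1 medium only, Obox6 in 2iL and Otx2 in OSKM, so the filter fixed their directions. The same held for Otx2 in iPSCs, where it was at 0.526 and 0.910 in 2iL-iPSCs. The other genes of this list stayed under an FPKM of 1.

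**Figure D4:**
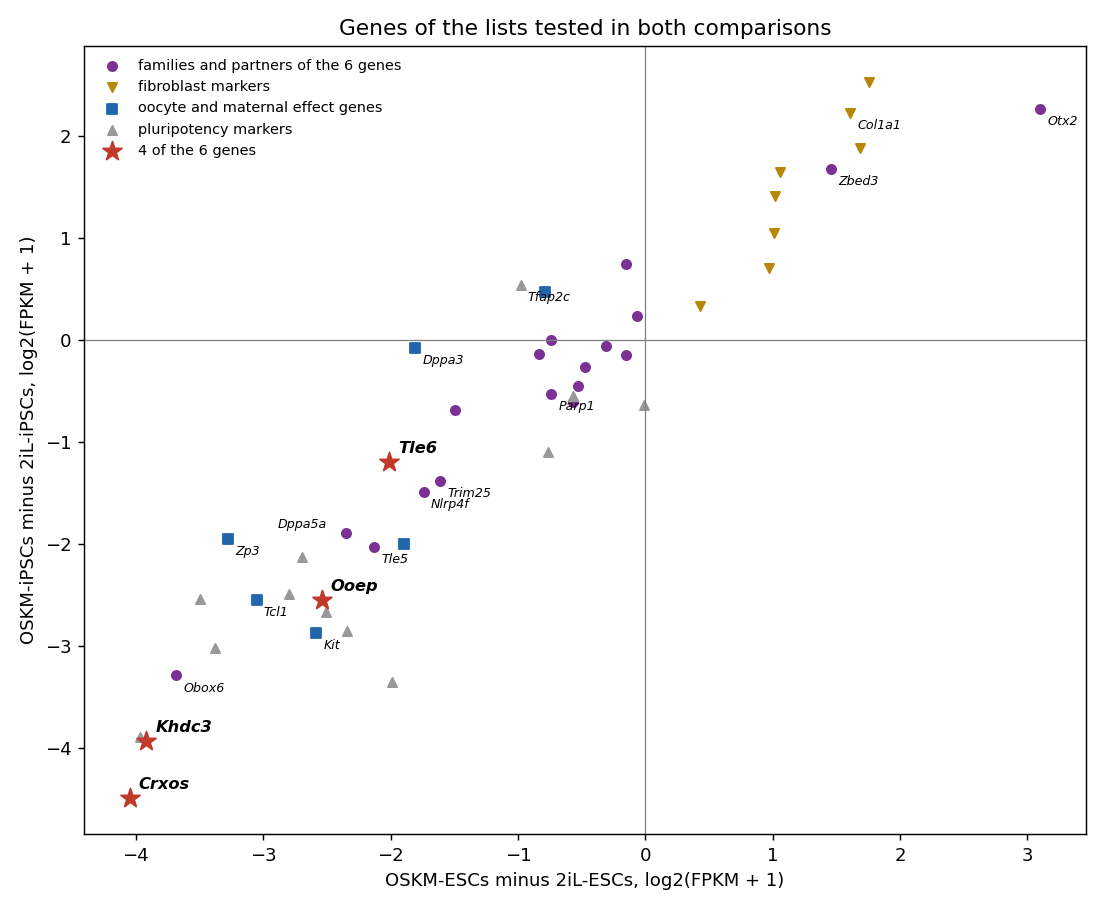
Difference of OSKM from 2iL cells in ESCs (horizontal) and in iPSCs (vertical), both on the log2(FPKM + 1) scale, for the genes of the lists tested in both comparisons and for Khdc3, Ooep, Tle6 and Crxos (stars, of which Khdc3 and Crxos were selected on these values). The stars lie in the lower left with Obox6, Dppa5a and Tle5, while Zbed3 and Otx2 lie in the upper right. The filter fixed the direction of Otx2 on both axes and of Obox6 in ESCs.

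Whether a wider oocyte program accompanied the 6 genes was examined with 28 oocyte and maternal effect genes in the files. Many of them were at or near 0, while others were not. Zp1, Oosp1, Btg4 and Oog1 to Oog4 were listed at 0 in all 16 pluripotent libraries, and the highest values were 0.270 for Zp2, 0.491 for Gdf9, 0.0517 for Bmp15 and 0.194 for Nobox. Of the 28 genes, 7 had an FPKM over 1 in some pluripotent library, and 5 exceeded it in both media of the ESCs. All 5 were lower in OSKM-ESCs, where 24.4% of all genes were, with a median of -2.58. Oas1c passed the filter through 2iL-ESCs alone. The sum over the list was 17.3 to 25.9 in OSKM-ESCs and 124.3 to 152.7 in 2iL-ESCs. In 2iL-ESCs most of it came from the same 5 genes, with means of 41.8 for Dppa3, 28.9 for Kit, 28.5 for Tcl1, 24.5 for Zp3 and 7.82 for Sohlh2. The sum therefore describes these genes and not the list as a whole.

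The genes over an FPKM of 1 included a zona gene and germ cell factors. Zp3, a zona pellucida gene, had 0.988 to 2.41 in OSKM-ESCs and 13.7 to 38.2 in 2iL-ESCs (difference -3.28, adjusted p = 3.3e-07, limma), and Tcl1, a coactivator of AKT, 1.65 to 4.24 against 22.8 to 39.3 (-3.05, adjusted p = 8.1e-08). Kit, a receptor of germ cells, differed by -2.58 (adjusted p = 1.2e-07). Sohlh2, a transcription factor of germ cells, had 0.296 to 2.94 against 4.31 to 13.9 (-1.90, adjusted p = 2.1e-06). Npm2, a maternal nucleoplasmin, reached 1.08 in an OSKM-iPSC clone. Dppa3, a maternal and germ cell factor, differed by -1.81 (adjusted p = 1.1e-07). In iPSCs 2 of 7 were lower, Kit (-2.87, adjusted p = 0.0067, limma) and Tcl1 (-2.54, adjusted p = 0.046, limma). The median over the 7 was -1.95, or -0.92 without OSKM-iPSC clone 1. Of the 7, Oas1c passed the filter of the iPSC comparison through OSKM-iPSCs alone. Dppa3 did not differ detectably there, at 25.5 and 51.8 against 34.6 and 43.1 (-0.08, adjusted p = 0.89), and its clones overlapped between media.

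Pluripotency markers were lower in OSKM cells too. Of 12 tested, 11 were lower in OSKM-ESCs and 7 in OSKM-iPSCs, where 24.4% and 2.96% of all genes were. The medians were -2.43 and -2.51 (-1.89 in iPSCs without OSKM-iPSC clone 1). In the iPSC comparison Tbx3 passed the filter through 2iL-iPSCs alone. Of the other 11 markers, 6 were lower there, with a median of -2.49. Pou5f1 (Oct4), which like Sox2 is also part of the transgene, did not pass in ESCs, at 586 to 810 against 596 to 843 (-0.0079, adjusted p = 0.94, limma). Nanog differed by -2.70, Esrrb by -2.51 and Sox2 by -0.57. Of the fibroblast markers, 3 exceeded an FPKM of 1 in both media of the ESCs, and all 3, Col1a2 (1.76), Col1a1 (1.61) and Thy1 (0.97), were higher in OSKM-ESCs, where 29.5% of all genes were. By the methods of the study the OSKM transgene lies in the Col1a1 locus, and any part of it in the Col1a1 value was not tested. Col3a1 was at 2.88 to 5.92 against 0.251 to 0.873. In iPSCs 0 of 9 passed and 0 of 9 had an unadjusted p under 0.05 (limma), with a median of 1.41. Of the 9, 1 exceeded an FPKM of 1 in both media of the iPSCs. Without OSKM-iPSC clone 1 the 1 marker still tested differed by 0.54, so the larger median rested on that clone. The part of either marker list in the values of the 6 genes was not tested; 4 of the 6 genes were themselves at 0 in MEFs.

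To see which genes shared the pattern, log2(FPKM + 1) values of 14621 genes were correlated with those of each expressed gene over the 16 pluripotent libraries. These fall into an OSKM and a 2iL cluster, so a high r mainly describes the same difference between media, and the libraries share lines and days. Khdc3 was most like Lrrc2 (Pearson r = 0.990), Spic (0.988), Hal (0.988), Dennd2c (0.988) and Crxos (0.988). Crxos was most like Prdm14 (0.991), Tle5 (0.988), H2-M6-ps (0.988), Khdc3 (0.988) and Cdk2 (0.987). That Khdc3 and Crxos stand near each other restates their selection on the same difference. Ooep was most like Mcf2 (0.992), its neighbor Dppa5a (0.990), Gm7972 (0.986), Zfp229 (0.985) and Dennd2c (0.982). Tle6 was most like Tex14 (0.991), Wdtc1 (0.987), Upp1 (0.985), Pgc (0.983) and Gm13261 (0.981).

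The partners were further down. Ooep ranked 39 and Tle6 93 in likeness to Khdc3 (r = 0.973 and 0.964), and 164 genes had an r over 0.95 with Khdc3, so the components of the complex were no closer to Khdc3 than many other genes. Within the 8 2iL libraries, Khdc3 had an r of 0.78 with Ooep, 0.64 with Crxos and -0.01 with Tle6. Within the 8 OSKM libraries it had 0.76 with Ooep, 0.43 with Crxos and 0.90 with Tle6, where Khdc3 and Crxos values are close to 0. These coefficients are descriptions over 8 libraries each.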

How the data were processed

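RNA-Seq of 18 libraries in 9 conditions was used. According to the methods of the study and its processing notes, total RNA was extracted with TRIzol, mRNA was selected by poly-A, reads were aligned to GRCm38/mm10 with STAR 2.7.1a, uniquely mapped reads were kept and StringTie 2.0 was run. The deposited FPKM values are fragments scaled by transcript length and mapped reads, made by the authors with StringTie. The deposited TPM values are the same on a common total, and were recomputed from FPKM in 2 libraries where 1 failed gene had spoiled the column. The deposited coverage is a signal, the mean read depth per base of the gene model, made by the authors with no normalization. Cuffdiff 2.2.1 served the authors for DEGs and was not used here. The annotation release is not given in the sources used here.

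Of 55471 genes, 2 with a failed value were left out, and 11 identifiers listed more than once were summed. Read counts are not given, so depth in reads is unknown. Coverage times exonic length gave whole aligned bases (within 0.05) for all 6 genes, with a length searched for in the case of Crxos. Coverage per FPKM over single-transcript genes, which rises with depth, was 5.01 to 6.07. Replicates shared no identical values. Of the gene identifiers, 55142 were found in GENCODE M21, 54809 of them with the same start and end.

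limma 3.58.1 (lmFit, eBayes with trend, R 4.3.3) took log2(FPKM + 1) values, keeping a gene when any library of the comparison exceeded an FPKM of 1, and using only the groups compared, with day as a covariate for ESCs over all days. This scale understates changes of low genes. P-values were adjusted by Benjamini-Hochberg over all genes, with a threshold of 0.05. Exact permutation tests were 2-sided and split the ESC cultures without regard to day. The fits were tested on simulated data. Tables used Python 3.11.15 with pandas 2.3.3. Samples were grouped by title.

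The 6 genes and all lists were chosen with earlier results of these data known. The text names the 6 genes, up to 4 genes per list by the highest mean FPKM in pluripotent libraries, Crx and Dppa5a, and the 5 genes most correlated with each expressed member. Tle2, Aqp3, Tbx3, Gm32885, Sohlh2, Npm2, Oas1c and the oocyte genes at or near 0 were named after their values were seen. Alternatives were a pseudocount of 0.1, other filters, all 18 libraries in 1 fit, quantile normalization, median-ratio scaling, limma without trend, TPM, a replicate block, each library left out and, added after seeing the data, coverage in place of FPKM and the lists without OSKM-iPSC clone 1. Protein sequences were not used here.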

Additional observations from a re-analysis of the deposited data

Results flagged for a closer look

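Khdc3 in OSKM-ESCs had an FPKM of 0.454 in replicate 1 of day 25, and this value stood apart from the other 5 cultures. It rests on 3935 aligned bases. Padi6 in OSKM-ESCs had 0.0430 in 1 culture of day 18 and 0 in the other 5, from 600 aligned bases. The rule used has a chance rate of about 1 in 20 groups for values without a floor. That rate does not apply here, since 3 of 6 Khdc3 values and 5 of 6 Padi6 values were 0.

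For Ooep the difference of OSKM-ESCs from 2iL-ESCs ranged over 0.68 on the log2(FPKM + 1) scale between days 18, 25 and 38 (limma interaction test, adjusted p = 0.011), and for Tle6 over 0.73 (adjusted p = 0.0057). For both genes the difference was smallest at day 18 and largest at day 38.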

How the results depend on the processing

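Ooep and Tle6 were lower in OSKM-ESCs under every alternative run. For Ooep the run with coverage repeats its FPKM values by construction and adds no second scale. With no filter on low values Padi6 passed as well (adjusted p = 0.044, limma). Other counts of called genes depended on the setting. They cover Ooep and Tle6 between media, for the change between days and against MEFs, where Khdc3 and Crxos were only described, and all genes over the filter elsewhere. Between OSKM-iPSCs and 2iL-iPSCs the count was 0 of 2, and it was 2 with a filter in 2 libraries or with all 18 libraries in 1 fit, 1 with median-ratio scaling or quantile normalization, and 0 to 2 with 1 library left out. For the change between days it was 2, and 0 with all 18 libraries. For days in OSKM-ESCs it was 1 of 2, and 0 with no filter or all 18 libraries, 2 with a filter in 2 libraries, median-ratio scaling, quantile normalization, TPM or no trend, and 0 to 1 with 1 library left out. For days in 2iL-ESCs it was 3 of 4, and 1 with all 18 libraries, 4 with TPM and 2 to 4 with 1 library left out. Between OSKM-iPSCs and OSKM-ESCs it was 0, and 1 with all 18 libraries. Between 2iL-iPSCs and 2iL-ESCs it was 1, and 0 with no filter, TPM, no trend or any 1 library left out. Between OSKM-iPSCs and MEFs it was 0, and 1 with a pseudocount of 0.1, TPM or all 18 libraries, and 0 to 1 with 1 library left out. Against MEFs the filter fixed the direction of Ooep. The causes were not tested.

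The Ooep difference of OSKM-iPSCs from OSKM-ESCs turned to -0.60 without OSKM-iPSC clone 3 and was 1.18 without clone 1. The Tle6 difference of OSKM-iPSCs from MEFs turned to -0.074 with median-ratio scaling, -0.030 with TPM, and ranged from -0.21 to 0.33 with 1 library left out. The descriptive Khdc3 and Crxos differences in ESCs were -6.58 and -5.46 with a pseudocount of 0.1, -4.93 and -4.72 with TPM, and -3.54 and -2.32 with coverage.

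Over all genes, 1087 were called between iPSCs of the 2 media, against 0 with no filter or without either 2iL-iPSC clone, 2076 without OSKM-iPSC clone 3 and 6289 with all 18 libraries. With all 18 libraries the counts were 3086 in place of 5319 for the change between days, 4122 in place of 6465 for days in 2iL-ESCs, 3576 in place of 258 between OSKM-iPSCs and OSKM-ESCs, and 2676 in place of 448 between 2iL-iPSCs and 2iL-ESCs. For days in OSKM-ESCs it was 5050, 3316 with no filter and down to 1972 with 1 library left out. Against MEFs it was 8572 for OSKM-iPSCs and 0 without either MEF library.

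No pairing of same-numbered cultures is stated. Their deviations from the group means correlated weakly, at 0.137, 0.0943 and 0.0113 on days 18, 25 and 38. These values cannot decide whether the cultures were paired. With a replicate block both Ooep and Tle6 kept their call between media (2 of 2, adjusted p = 2.8e-06 and 1.2e-05) and between days (2 of 2), while 6673 genes were called in place of 7546.

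Read depth is unknown, and Khdc3, Padi6 and Nlrp5 values below an FPKM of 0.5 rest on at most 3935 aligned bases, which limits any statement on their order.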
